A study of Homo sapiens with 2 samples.

Results

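Genes of calcium-binding proteins, CALML3, CALML5, CALB1, CALB2, CALM2, CALM3 and CALU, were followed in HARA-B4 and HARA. They were taken as every probe set (a group of probes read together as 1 value) that the array's annotation gives to one of these symbols and to no other gene. CALML3 and CALB1 were selected on their signals in this same contrast, which differed widely and in opposite directions, so their values are a description and support nothing further. Of the 7 genes listed, 5 had such a probe set, 11 probe sets in all, among 19735 genes measured. CALM2 and CALM3 were not named in the annotation table used and are not analysed here. HARA-B4 is a subline of the human squamous cell lung cancer line HARA that spreads readily to bone, and HARA is its parent; both are established cell lines that grew in culture in the same serum-containing medium, with no treatment named in the labels. Each line was measured on 1 Affymetrix array (n = 1), so no value has a replicate error and no p-value is given.

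EF-hand proteins bind calcium ions in helix-loop-helix motifs. Sensors such as calmodulin change shape on binding and then switch kinases, phosphatases, myosins and channels, whereas buffers such as calbindin and calretinin mainly take up calcium and shape its signal. In stratified squamous epithelium calcium drives differentiation, and the calmodulin-like proteins encoded by CALML3 and CALML5 belong to epithelial cells and to differentiating keratinocytes.

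Signals are linear units as deposited, and a signal of 27.1 was taken as background. That is the 95th percentile, over both arrays, of 165 probe sets for sensory (smell, taste and vomeronasal) receptor genes, assumed to be silent in lung cancer cells. Where a gene was above background on 1 array alone, the other value was set to background and the fold is a lower bound. Of the 5 measured genes, CALML3, CALB1 and CALU were above background on at least 1 array, and CALML5 and CALB2 were at background on both. CALML3 was the 1 gene called higher in HARA-B4, and CALB1 and CALU were the 2 called lower, a call meaning 2-fold or more. Among the 11489 genes above background on at least 1 array, 3.62% were called higher in HARA-B4 and 4.2% lower. The choice of CALML3 and CALB1 used this contrast, so nothing is read from the count. The SD of the log2 difference between probe sets of 1 gene, over 4830 genes with several above background, was 0.30. It measures how far probe sets of 1 gene differ, and not the spread between repeated arrays or cultures.

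**Figure D1:**
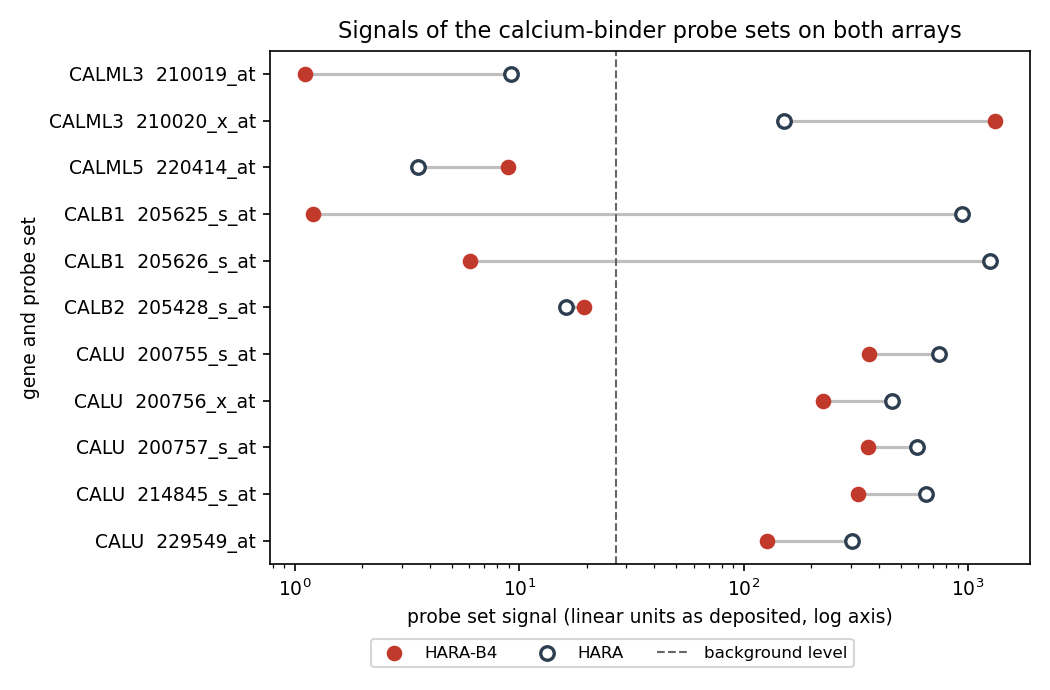
Signals of the 11 probe sets of CALML3, CALML5, CALB1, CALB2 and CALU (log axis, linear units as deposited), with filled points for HARA-B4, open points for HARA and a dashed line at the background signal of 27.1. CALB1 lies on opposite sides of background in the lines by both probe sets, CALU is lower in HARA-B4 by all 5, and the CALML3 probe sets lie on opposite sides of background.

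CALML3, the calmodulin-like protein of epithelial cells that can serve as a light chain of myosin 10, had a signal of 1321 in HARA-B4 and 150.9 in HARA on its brighter probe set. The log2 difference was 3.13, an 8.76-fold higher signal in HARA-B4, with both values well above background. The second CALML3 probe set had 1.11 in HARA-B4 and 9.17 in HARA, both below background, so it gives no fold. The CALML3 difference therefore rests on 1 probe set. The name of that probe set ends in _x_at, the mark of probes that can match other transcripts, and how much such transcripts add to its signal was not tested. In a culture of whole cells, fewer cells that express a gene and less of its RNA per cell cannot be told apart.

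Reliance on 1 probe set was common among genes called in this direction. Of 277 genes called higher that had several probe sets, 84 (30.3%) had all their other probe sets at background on both arrays. In 20 of the 277 the brightest probe set was an _x_at one, and in 5 of those 20, CALML3 among them, the others were at background. CALML3 ranked 11th of 11489 genes among those higher in HARA-B4, where genes at background in HARA enter by their lower bounds and could stand further up.

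CALML5, a skin calmodulin-like protein of differentiating keratinocytes, had a signal of 8.89 in HARA-B4 and 3.56 in HARA. Both lie under background, so CALML5 was not detected above background in either line and no fold is given. CALML5 and CALML3 lie on chromosome 10 with no other gene above background between them in RefSeq order. CALML3 was thus above background in both lines on its _x_at probe set alone, and CALML5 in neither line.

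The bases upstream of the CALML3 and CALML5 starts are shown because these neighbours of 1 subfamily differed in detection, which for CALML3 rests on 1 _x_at probe set. Those of CALU are shown because it was the member with signal on all its probe sets in both lines. Each sequence holds the 250 bases before the annotated start (RefSeq, GRCh38.p14), 5′ to 3′ on the gene's strand, and capitals mark matches to the motifs named after them. CALML3 is at chr10:5524711-5524960 on the + strand, CALML5 at chr10:5499571-5499820 on the - strand and CALU at chr7:128739109-128739358 on the + strand.
CALML3: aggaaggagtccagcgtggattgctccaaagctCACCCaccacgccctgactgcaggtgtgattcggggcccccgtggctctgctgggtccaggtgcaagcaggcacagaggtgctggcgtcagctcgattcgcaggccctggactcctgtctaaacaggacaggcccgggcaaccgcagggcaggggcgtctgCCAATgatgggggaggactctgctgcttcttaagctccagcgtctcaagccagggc
CALML5: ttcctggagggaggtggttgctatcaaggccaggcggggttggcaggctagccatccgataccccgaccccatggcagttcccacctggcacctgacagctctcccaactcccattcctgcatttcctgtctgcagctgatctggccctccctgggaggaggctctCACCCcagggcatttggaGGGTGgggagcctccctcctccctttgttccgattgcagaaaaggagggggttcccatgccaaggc
CALU: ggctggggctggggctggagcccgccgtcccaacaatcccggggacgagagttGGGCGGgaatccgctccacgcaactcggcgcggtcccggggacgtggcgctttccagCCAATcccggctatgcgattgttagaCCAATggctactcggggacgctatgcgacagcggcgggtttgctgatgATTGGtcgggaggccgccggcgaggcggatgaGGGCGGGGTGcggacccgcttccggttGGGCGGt

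Both strands were searched for the TATA box (TATAAA), the AP-1 site (TGANTCA), the CCAAT box (CCAAT), the GC box (GGGCGG) and the CACCC box (CACCC). CALML3 had 1 CCAAT and 1 CACCC match, and CALML5 had 2 CACCC matches. CALU had 3 CCAAT, 3 GC box and 1 CACCC match, of which 1 GC box and the CACCC box overlap. None of these 3 windows held TATAAA or TGANTCA. Over 35116 windows of the same length, 32.0% held CCAAT, 42.6% GGGCGG, 54.7% CACCC, 10.7% TATAAA and 6.57% TGANTCA. The count of CG dinucleotides was 11 for CALML3, 4 for CALML5 and 30 for CALU, against a median of 11 over all windows, and 87.6% of windows held fewer than CALU. These matches describe the letters and identify no bound factor.

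CALB1 encodes calbindin, a cytosolic calcium buffer of kidney tubule and neurons that vitamin D regulates in some tissues. Its brighter probe set had a signal of 6.03 in HARA-B4 and 1251 in HARA. The second had 1.20 in HARA-B4 and 935 in HARA. Both therefore fell on opposite sides of background in the 2 lines, with HARA-B4 at background and HARA far above it. In HARA-B4 CALB1 was lower by at least 46.1-fold on the brighter probe set and by at least 34.5-fold on the other. Of all genes above background on at least 1 array, 6.03% were above it in HARA alone, and CALB1 ranked 3rd by bound among those lower in HARA-B4. Both CALB1 probe sets end in _s_at, which marks a match to several transcripts.

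CALB2 encodes calretinin, the related buffer of neurons and a pathology marker of mesothelium. It had a signal of 19.5 in HARA-B4 and 16.2 in HARA on its 1 probe set, both below background. No fold is given for CALB2, so in HARA-B4 neither buffer gene was above background, whereas in HARA CALB1 was.

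CALU encodes calumenin, a calcium-binding protein of the secretory pathway with low-affinity EF-hands that inhibits the vitamin K-dependent gamma-carboxylase system. It was the one member with more than 2 probe sets. The brightest had a signal of 362 in HARA-B4 and 743 in HARA, and another had 324 in HARA-B4 and 651 in HARA. The remaining 3 had 358, 225 and 126.6 in HARA-B4, against 590, 457 and 303.5 in HARA. The one with 126.6 and 303.5 ends in plain _at, and the others end in _s_at or _x_at and can match several or other transcripts. All 5 were lower in HARA-B4. Their log2 differences ran from -1.26 to -0.72, with a median of -1.02 and an SD of 0.19 over probe sets. The probe sets read the same RNA of each line and are not replicates.

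The brightest CALU probe set gave a log2 difference of -1.04 (2.05-fold lower in HARA-B4), and 4 of 5 were at least 2-fold lower. The value lies at the 2-fold threshold, within the 0.30 spread between probe sets of 1 gene, and all 5 probe sets share its direction while 1 of them misses 2-fold. CALU ranked 452nd of 11489 among genes lower in HARA-B4, bounds included, close to the edge of the 4.2% called.

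**Figure D2:**
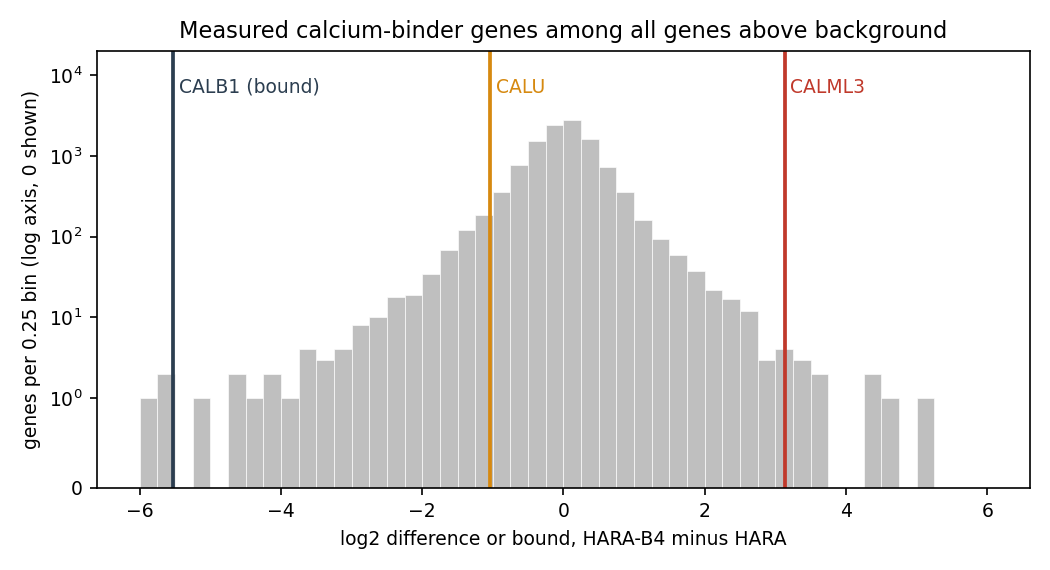
Counts of the 11489 genes above background on at least 1 array by log2 difference or bound (HARA-B4 minus HARA, bins of 0.25, log count axis). Lines mark CALB1 (bound of -5.53), CALU (-1.04) and CALML3 (3.13); CALB1 and CALML3 lie in opposite tails and CALU at the shoulder of the lower side.

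Neighbouring genes were compared, up to 5 genes above background on each side of each member in RefSeq order. Over all genes above background on at least 1 array, 51.5% had a positive and 48.5% a negative difference. Around CALML3, 9 of 10 neighbours had positive differences, with a median of 0.20 and a range of -0.02 (FBH1) to 1.09. The aldo-keto reductase AKR1C3 was the 1 neighbour past 2-fold (673 in HARA-B4 and 317 in HARA), and the guanine nucleotide exchange factor NET1 had 2055 in HARA-B4 and 1236 in HARA (0.73). The neighbours of CALML5 are almost the same genes, so they give no further count. The CALML3 difference of 3.13 lies outside that range, but CALML3 was selected for its large difference, so nothing is read from this.

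Around CALB1 on chromosome 8, 7 of 10 neighbours had negative differences with a median of -0.07. MMP16, a membrane-type matrix metalloproteinase, was past 2-fold: it had 7.32 in HARA-B4 and 309 in HARA, lower by at least 11.4-fold. MMP16 was thus above background in HARA and at background in HARA-B4, as CALB1 was, while the 4 genes between them, RIPK2, OSGIN2, NBN and DECR1, were above background on both arrays with differences of -0.08, -0.65, -0.74 and -0.06. The highest neighbour was C8orf88, at 179.4 in HARA-B4 and 124.7 in HARA (0.53).

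Around CALU on chromosome 7, 9 of 10 neighbours had negative differences, with a median of -0.48 and a range of -1.29 to 0.01 (LINC01000). HILPDA, a lipid droplet protein induced by hypoxia, had 85.7 in HARA-B4 and 209.9 in HARA (-1.29). SMO (5.81 in HARA-B4 and 34.2 in HARA), TSPAN33 and CCDC136 were at background in HARA-B4, so their differences are bounds and cannot be ordered against the -1.04 of CALU. The nuclear importer TNPO3 had 467 in HARA-B4 and 737 in HARA (-0.66). Around CALB2 on chromosome 16, 8 of 10 had negative differences with a median of -0.20, from -0.48 (MARVELD3) to 0.45 (PHLPP2), and 0 were past 2-fold.

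**Figure D3:**
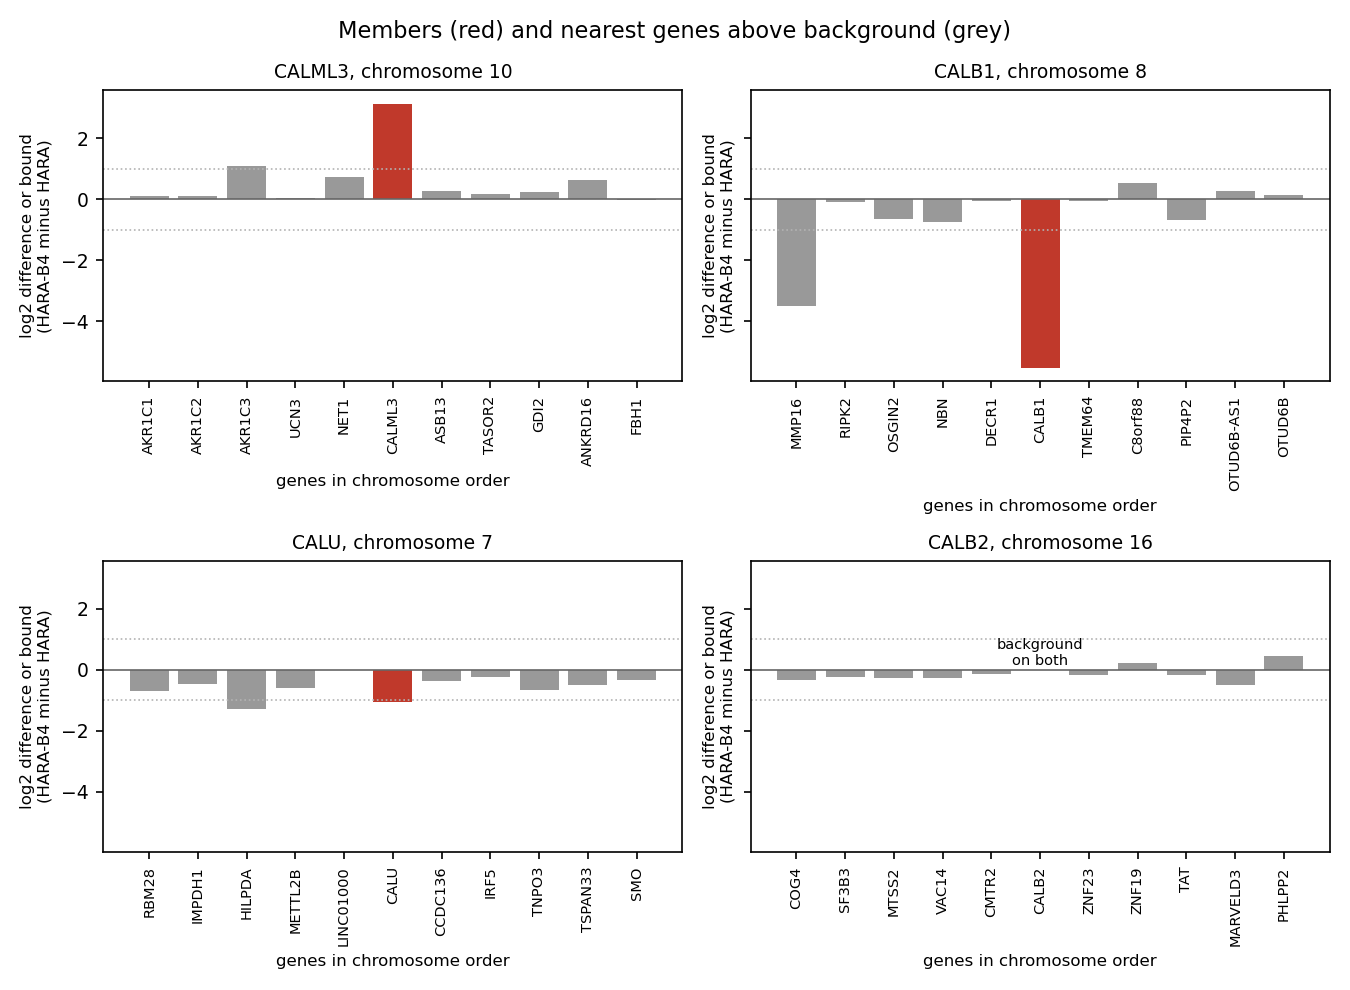
Log2 difference or bound (HARA-B4 minus HARA) for CALML3, CALB1, CALU and CALB2 (red; CALB2 is at background on both arrays and has no bar) and for the 5 nearest genes above background on each side (grey), in chromosome order; dotted lines mark 2-fold. CALML3 and CALB1, which were selected for their large differences, stand far beyond their neighbours, apart from MMP16 near CALB1. CALU is within the range of its own neighbours.

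The genes whose signals on the 2 arrays lay nearest to those of CALML3, by distance on the log2 scale over the 2 arrays, were MTSS1 (0.34), CXCL14 (0.47) and APBB2 (0.64). MTSS1, a membrane-bending actin regulator, had 1075 in HARA-B4 and 134.1 in HARA. The chemokine CXCL14 had 953 in HARA-B4 and 146.0 in HARA. For CALB1 the nearest 3 were HTATIP2, the ephrin receptor EPHA3 and NBEA, all at background in HARA-B4, so their distances include signals below background and give no order. In HARA they had 1362, 688 and 654, against 1251 for CALB1. With 2 arrays this likeness covers 2 values per gene and says nothing of shared control.

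The list of other EF-hand sensors and buffers, in which S100 genes are not counted, had 1 gene past 2-fold. Of 40 further sensors and buffers with a probe set, 19 were above background on at least 1 array, of which 1 passed 2-fold upward in HARA-B4, 0 downward and 18 neither way. That is 5.26% higher, against 3.62% of all genes above background, and none lower, against 4.2%. Their median log2 difference was 0.19, against 0.01 over all genes above background. The higher gene was PDCD6 (ALG-2), a penta-EF-hand sensor of membrane trafficking and cell death, with 2475 in HARA-B4 and 995 in HARA (1.31; 0.75 to 1.38 over its 3 probe sets). The calmodulin-like CALML4 had a log2 difference of 0.29 and the visinin-like sensor VSNL1 one of -0.70.

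The list of lumenal calcium binders, the compartment of calumenin, gave no gene past 2-fold among 13 above background. These 13 include GGCX and VKORC1, which are enzymes of the gamma-carboxylase system rather than lumenal calcium binders. Over all genes above background, 3.62% were called higher and 4.2% lower. The list's median was -0.08, with a range of -0.82 (PDIA4, a disulfide isomerase) to 0.46 (HSPA5, the chaperone BiP). HSPA5 had 4200 in HARA-B4 and 3063 in HARA, and the lectin chaperone calnexin (CANX) 3015 in HARA-B4 and 2380 in HARA (0.34). Reticulocalbin RCN1, a relative of calumenin, had 484 in HARA-B4 and 632 in HARA (-0.38), and calreticulin (CALR) 908 in HARA-B4 and 1132 in HARA (-0.32). GGCX, the gamma-carboxylase, differed by 0.33. The CALU difference of -1.04, on its brightest probe set, was lower than that of any of these 13 genes. Another CALU probe set, at -0.72, was not lower than PDIA4, so this order depends on the probe set used.

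In the S100 family of EF-hand proteins, 9 of 19 genes were above background, 1 higher and 1 lower in HARA-B4, with a median of 0.17. Each share is 11.1% and rests on 1 gene, against 3.62% higher and 4.2% lower of all genes above background. S100A6 had 5191 in HARA-B4 and 2194 in HARA (1.24), on the 1 of its 2 probe sets that was above background. S100P, a secreted ligand of RAGE, had 11.2 in HARA-B4 and 125.8 in HARA, lower by at least 4.64-fold. Like CALB1, S100P was above background in HARA alone.

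Calmodulin targets past 2-fold went both ways. Of 36 above background, 3 passed 2-fold upward in HARA-B4 and 1 downward, 32 did neither, and the median was 0.13. These are 8.33% higher and 2.78% lower, against 3.62% and 4.2% of all genes above background. MYLK, the calmodulin-activated myosin light chain kinase, had 285 in HARA-B4 and 20.2 in HARA, at least 10.5-fold higher. DAPK1, a calmodulin-regulated death kinase, was higher by at least 2.51-fold (68.1 in HARA-B4 and 18.2 in HARA), and the motor MYO1E had 123.5 in HARA-B4 and 51.6 in HARA (1.26). Caldesmon (CALD1), an actin binder that calmodulin releases, had 874 in HARA-B4 and 1825 in HARA (-1.06; -2.13 to -0.88 over its 6 probe sets above background). MYO10, the myosin that the CALML3 protein binds, had 1844 in HARA-B4 and 1003 in HARA, a difference of 0.88 that was not past 2-fold and ran from 0.21 to 1.47 over 5 probe sets.

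Calcium pumps, channels and store-operated entry genes gave 0 higher and 1 lower among 23 above background, with a median of -0.02. These are 0% higher and 4.35% lower, against 3.62% and 4.2% of all genes above background. The lower one was ATP2C1, the Golgi calcium and manganese pump needed for keratinocyte cohesion, with 333 in HARA-B4 and 739 in HARA (-1.15). In the vitamin D system, which regulates calbindin in some tissues, 8 genes were above background, 0 higher and 1 lower, with a median of -0.25. The share lower is 12.5% and rests on 1 gene, against 4.2% of all genes above background. The vitamin D receptor (VDR) had 335 in HARA-B4 and 250.5 in HARA (0.42), and CYP24A1, its catabolic target enzyme, 135.0 in HARA-B4 and 192.3 in HARA (-0.51). Both were above background in both lines, while CALB1 was above it in HARA alone. The lower gene was osteopontin (SPP1), with 7.38 in HARA-B4 and 275 in HARA, lower by at least 10.1-fold.

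Suprabasal and cornified genes mark the differentiating layers where the calmodulin-like proteins are found. This list, like the others, was chosen with earlier results of these data known. Of 31 genes with a probe set, 9 were at background on both arrays. Of the 22 above background, 8 were called higher in HARA-B4 (36.4%, against 3.62% of all genes above background) and 0 lower. The median of the 22 was 0.79, with a range of -0.94 to 2.63. The differences of 5 were negative: CSTA (-0.94), GRHL3 (a bound of -0.47), DMKN (-0.39), SPRR3 (-0.16) and OVOL1 (-0.01). SPRR1B, a cornified envelope precursor, had 2154 in HARA-B4 and 349 in HARA (2.63), and SPRR1A had a difference of 1.92. The suprabasal keratin KRT1 was higher by at least 4.92-fold (133.4 in HARA-B4 and 14.6 in HARA). The transcription factor KLF4 had 663 in HARA-B4 and 173.6 in HARA (1.93). KRT13, IVL, SCEL and ZNF750 made up the 8, and SFN (14-3-3 sigma) was not among them, at 7905 in HARA-B4 and 7490 in HARA (0.08). IVL, SCEL and ZNF750 had 63.4, 90.4 and 72.5 in HARA-B4 and were at background in HARA, so their differences are lower bounds. CALML3 was selected on its signal in this contrast, so its difference is not read as support for this list. CALML5 was at background on both arrays.

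**Figure D4:**
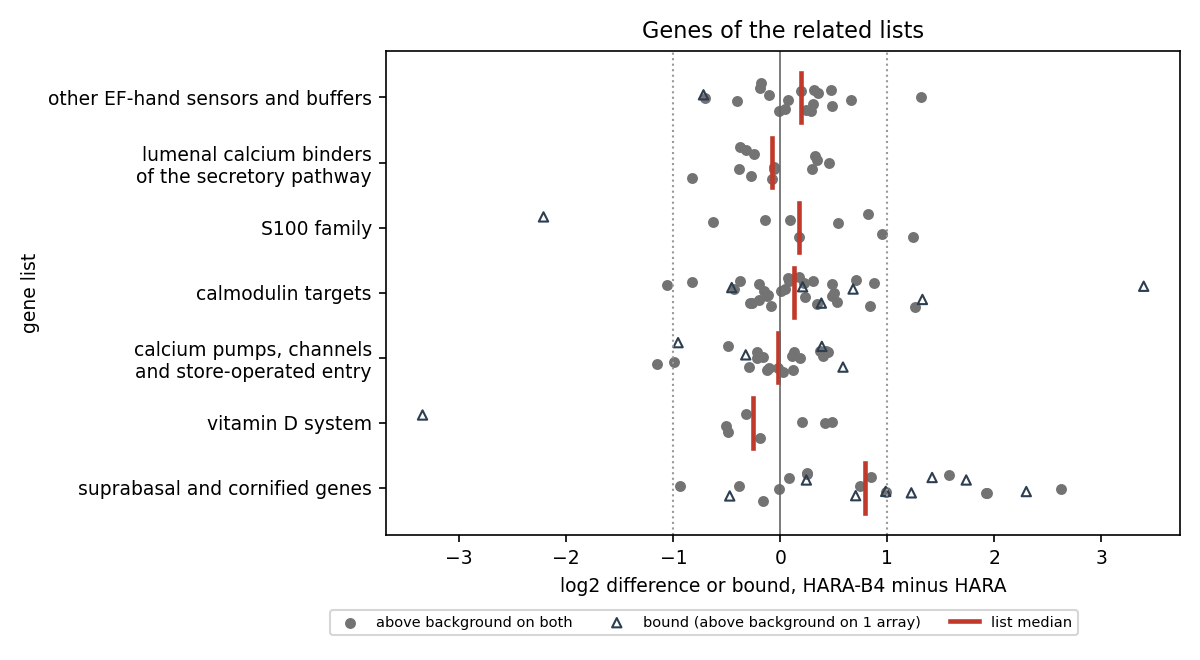
Log2 difference or bound (HARA-B4 minus HARA) of each gene above background on at least 1 array in the 7 related lists, with filled points for genes above background on both arrays, open triangles for bounds and a red bar at each list's median; dotted lines mark 2-fold. The suprabasal list sits highest, with a median of 0.79, and the others have medians between -0.25 and 0.19.

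Of 12 squamous basal markers listed for the labelled type, TP63 and KRT17 were not named in the annotation table and could not be read. The other 10 were above background on both arrays, with a summed signal of 20816 in HARA-B4 and 17955 in HARA. Of these, 2, KRT15 and PKP1, were called higher in HARA-B4. The differences of 4 were negative, down to -0.98 (DSC3), with none called lower. Among 13 neuronal and neuroendocrine markers, 5 were above background and 0 past 2-fold (summed 2837 in HARA-B4 and 2454 in HARA, of which TUBB3 gave 2547 and 2193), with UCHL1 at 115.3 in HARA-B4 and 98.2 in HARA, and the defining CHGA and SYP were at background. Of 7 mesothelial markers 4 were above background (summed 4216 in HARA-B4 and 4290 in HARA, mostly the general epithelial keratins KRT8, at 1238 and 1034, and KRT18, at 2740 and 3065). WT1 was higher by at least 5.40-fold (146.6 in HARA-B4 and 0.98 in HARA). PDPN was lower (68.8 in HARA-B4 and 164.1 in HARA), and MSLN was at background on both arrays. Fibroblast markers had 3 of 9 above background (summed 372 in HARA-B4 and 301 in HARA), with FAP higher, THY1 lower, COL1A1 at 139.9 in HARA-B4 and 184.9 in HARA, and COL1A2, COL3A1, DCN and LUM at background. Blood and marrow markers had 2 of 6 above background, CD79A (55.2 in HARA-B4 and 63.4 in HARA) and HBB (33.9 in HARA-B4 and 35.7 in HARA), 0 past 2-fold, with PTPRC and CD14 at background (summed 103.0 in HARA-B4 and 120.1 in HARA). Their part in the CALML3 and CALB1 differences was not tested.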

How the data were processed

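Total RNA of 1 HARA-B4 and 1 HARA culture was hybridised, per the labels' protocols, as biotin-labelled cRNA to 1 array each. The values deposited are linear intensities, 1 per probe set, made with Affymetrix Expression Console, per the submitters' processing notes; the sources used here do not give its version, algorithm, scaling or detection calls. The mean signal without the outer 2% on each side was 116.0 in HARA-B4 and 115.6 in HARA, so no further scaling was applied, and the median signal was 16.2 in HARA-B4 and 17.3 in HARA. Precision is limited by there being 1 array per line.

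Values were taken to the log2 scale (Python 3.11.15, pandas 2.3.3). Of 54675 probe sets, 41097 had 1 gene symbol, 1801 several and 11777 none, and 41043 of the first kind were matched by Entrez ID to RefSeq (GRCh38.p14). Each gene was represented by the probe set brightest on average over both arrays. Differences are HARA-B4 minus HARA, and genes at least 2-fold apart were counted. With 1 array per line no test was possible. The procedure was tested on simulated data with known changes.

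The genes and lists were chosen with earlier results of these data known. All probe sets of the members were named. Each list gave up to 4 genes with the largest difference past 2-fold, or its 2 brightest where none was; MYO10, SFN, VDR, CYP24A1, CALR and RCN1 were named whatever their values. In each neighbourhood the extreme genes were named, and the 3 genes nearest to CALML3 and to CALB1. KRT13, IVL, SCEL, ZNF750, CALML4, VSNL1, PDIA4, GGCX, VKORC1, NET1, TNPO3, SMO, TSPAN33, CCDC136, the suprabasal genes with negative differences, cell type markers named beyond the largest or brightest of their list, and the genes between MMP16 and CALB1 were added after their values were seen. The alternatives were other scalings, backgrounds, probe set rules, a pseudocount of 16 and folds of 1.5 and 3.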

Additional observations from a re-analysis of the deposited data

How the results depend on the processing

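CALML3 kept a log2 difference of 3.003 to 3.14 under median subtraction, quantile normalization, trend removal, both shifted backgrounds and log2(signal + 16). With the plain mean of both probe sets it was 0.04, because the second probe set's difference between signals that are both below background enters that mean; with such signals first set to background, an alternative chosen after seeing the data, it was 1.57. With _x_at and _s_at probe sets removed it was at background on both arrays. CALU ranged from -1.26 to -1.005 in all 9 settings that gave it a value. The CALB1 bound moves with the background by construction: it was -4.53 with a background 1 log2 unit higher, -6.53 with one 1 unit lower and -4.88 with log2(signal + 16), and CALB1 has no probe set left without the _s_at ones. No paired analysis was possible because each line had 1 array.

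Of 192 counts recomputed, 156 stayed within 1.5 times the reported count. These include reported counts of 0 that stayed 0, so the share says less about the other counts. With the mean of all probe sets, 0 members were higher, and S100 genes had 0 higher, calmodulin targets 1 higher and 0 lower, and the vitamin D system 0 lower. With that mean taken after setting signals below background to it, S100 genes had 0 higher and calmodulin targets 0 lower, and 1 member was higher and 2 lower as reported. With _x_at and _s_at probe sets removed, 0 members were higher and 1 lower, calcium pumps and channels had 0 lower, the vitamin D system 0 lower and suprabasal genes 5 higher. With the background raised by 1, suprabasal genes had 5 higher. With it lowered by 1, other EF-hand genes had 1 lower, calmodulin targets 5 higher, and pumps and channels 2 higher and 2 lower. Quantile normalization gave 1 suprabasal gene lower. At a fold of 1.5, other EF-hand genes had 2 higher and 2 lower, lumenal binders 1 lower, S100 genes 3 higher and 2 lower, calmodulin targets 7 higher and 2 lower, pumps and channels 1 higher and 3 lower, and suprabasal genes 13 higher and 1 lower. At a fold of 3, 1 member was lower, other EF-hand genes had 0 higher, S100 genes 0 higher, calmodulin targets 1 higher and 0 lower, pumps and channels 0 lower and suprabasal genes 5 higher. Beyond the changes that follow from the threshold, background or probe sets removed, the cause was not tested.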
